A study of Mus musculus with 9 samples.

Results

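The 10 genes followed here encode fibrillar collagens, matrix proteins and proteins of the hepatic stellate cell, the fat- and retinoid-storing cell of the liver that turns into a matrix-producing myofibroblast after injury. They were Col1a1, Col1a2, Col3a1, Acta2, Tgfb1, Timp1, Des, Lum, Dcn and Sparc, chosen by name as readouts of fibrosis at 2 months of age, and all 10 were measured, by 16 of the 22626 non-control probe sets of the array. Of these genes 4 had 1 probe set and 6 had more, and every probe set was tested with no filter on signal. The livers came from males of 3 models, all with a genetic background mixed from C57BL/6 and 129/Sv. As their names say, liver-Cpr-null mice lack Cpr in the liver and Cpr-low mice have little of it, and the Cpr-lox mice served as controls. Cpr is NADPH-cytochrome P450 reductase, the enzyme that hands electrons to the microsomal P450 enzymes. As generally described, though not in the labels, the control carries Cpr alleles flanked by loxP sites, the liver-Cpr-null mice add a Cre recombinase driven by the albumin promoter, which acts in hepatocytes, and the Cpr-low mice make less Cpr in all tissues. Deletion in the liver-Cpr-null mice would then leave Cpr in stellate, Kupffer and endothelial cells. Each model gave 8 or 9 livers, whose RNA went into 3 pools, with 1 Affymetrix MOE430A array per pool.

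In fibrosis the stellate cell loses its retinoid stores, gains smooth muscle actin and secretes collagens I and III, which other matrix proteins space, bind and crosslink. The cytokine TGF-beta, acting through its receptors and Smad proteins, is the best known inducer of this programme, and tissue inhibitors of metalloproteinases slow the breakdown of the matrix once it is laid down. A healthy liver holds little fibrillar collagen outside the portal tracts and vessel walls.

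Signals are the deposited intensities after scaling every array to the same trimmed mean. A fold change is a difference of log2(signal + 16), given ± SE, and understates the change of a dim probe set. A probe set is said to have risen or fallen where the limma fit over all 22626 probe sets gave a Benjamini-Hochberg adjusted p under 0.05. Array medians lay between 171 and 179, and arrays correlated at 0.991 to 0.997 within a model and at 0.985 to 0.994 between models. The labels call the pools independent without saying which mice went into each, and p-values reflect the spread between pools alone. No check of the model labels by the level of Cpr itself was made, since its gene was not analysed. Hepatocyte markers had a summed scaled signal of 293342 to 299989 in liver-Cpr-null, 329551 to 346093 in Cpr-low and 323463 to 336186 in Cpr-lox, so they were present in every array and lower in each liver-Cpr-null pool than in any other. In whole liver RNA, fewer cells of a type and less RNA per cell cannot be told apart. The 3 Cpr-lox pools and Cpr-low pool 1 carry an earlier hybridization date than the other 5 arrays, whose entries follow by 102 to 193 minutes. A fit that blocks on this date thus compares with Cpr-lox through 1 array, Cpr-low pool 1. The scan date separates the Cpr-lox arrays from all others, so scan date and Cpr-lox cannot be told apart. The scan entry of Cpr-low pool 1 nevertheless follows that of Cpr-lox pool 3 by only 10 minutes.

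Promoter sequence was at hand for 7 of the 10 genes, from RefSeq (GRCm38.p6). It is shown, as the 250 bases before the annotated start, for both genes that rose and for Col1a2, another fibrillar collagen gene, which did not. Capitals mark CAGAC, the core of the Smad binding element, CCAAT and TATAAA, each on either strand, with no overlap between the capitals. The Col3a1 window lies at chr1:45311288-45311537 on the plus strand, the Sparc window at chr11:55420081-55420330 on the minus strand and the Col1a2 window at chr6:4505368-4505617 on the plus strand.
Col3a1: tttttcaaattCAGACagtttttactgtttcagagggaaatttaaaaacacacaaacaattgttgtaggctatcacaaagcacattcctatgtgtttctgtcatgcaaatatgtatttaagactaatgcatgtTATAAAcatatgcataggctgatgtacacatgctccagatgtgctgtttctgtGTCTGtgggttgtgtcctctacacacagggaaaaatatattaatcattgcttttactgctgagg
Sparc: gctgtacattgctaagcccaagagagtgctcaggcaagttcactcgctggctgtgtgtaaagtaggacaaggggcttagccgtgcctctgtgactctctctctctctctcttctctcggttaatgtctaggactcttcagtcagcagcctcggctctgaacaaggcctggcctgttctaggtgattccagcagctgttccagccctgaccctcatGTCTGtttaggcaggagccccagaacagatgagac
Col1a2: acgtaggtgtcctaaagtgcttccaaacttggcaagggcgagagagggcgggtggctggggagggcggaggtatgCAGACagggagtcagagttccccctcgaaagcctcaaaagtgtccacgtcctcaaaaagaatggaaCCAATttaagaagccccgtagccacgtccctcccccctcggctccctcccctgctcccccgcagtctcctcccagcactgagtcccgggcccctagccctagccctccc
The Col3a1 window held 2 matches to CAGAC and 1 to TATAAA. Sparc held 1 match to CAGAC and no other, and Col1a2 held 1 match to CAGAC and 1 to CCAAT. Among the 7 genes, 4 windows held CAGAC, 2 CCAAT and 1 TATAAA. Of 32851 RefSeq promoter windows of the same length, 42.2% held CAGAC, 33.8% CCAAT and 12.4% TATAAA. A match describes the letters of the window alone, and binding of a protein to it was not tested here.

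The first question was whether livers that lack Cpr express the fibrosis genes at a higher level than Cpr-lox livers. Col3a1 and Sparc rose in liver-Cpr-null livers, each by 1 of its 2 probe sets, and none of the 10 genes fell. Both of these calls were lost in a fit with a block for hybridization date (adjusted p = 0.125 and 0.3). The signals of Col1a1, Col1a2, Acta2, Tgfb1, Timp1, Des and Lum differed by less than the test could call. Dcn, at 0.25 ± 0.08 with pools that did not overlap, was not called either (limma adjusted p = 0.128). So 2 of 16 probe sets (12.5%) were called, both upward, where 3.88% of all 22626 were called in either direction and 2.21% rose. At an unadjusted p under 0.05 there were 3 of 16, those of Col3a1, Dcn and Sparc, against 13.3% of all probe sets. The pools of the models did not overlap for 3 of 16 (18.8%), all higher in liver-Cpr-null, while 20.7% of all probe sets did not overlap, so that share was near the background. The median log2 fold change was 0.04 over the 16 and -0.04 over all probe sets. Of the 879 probe sets called, 500 rose and 379 fell. That split was 432 and 231 with the signals as deposited and 412 and 179 with scaling to the median.

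**Figure D1:**
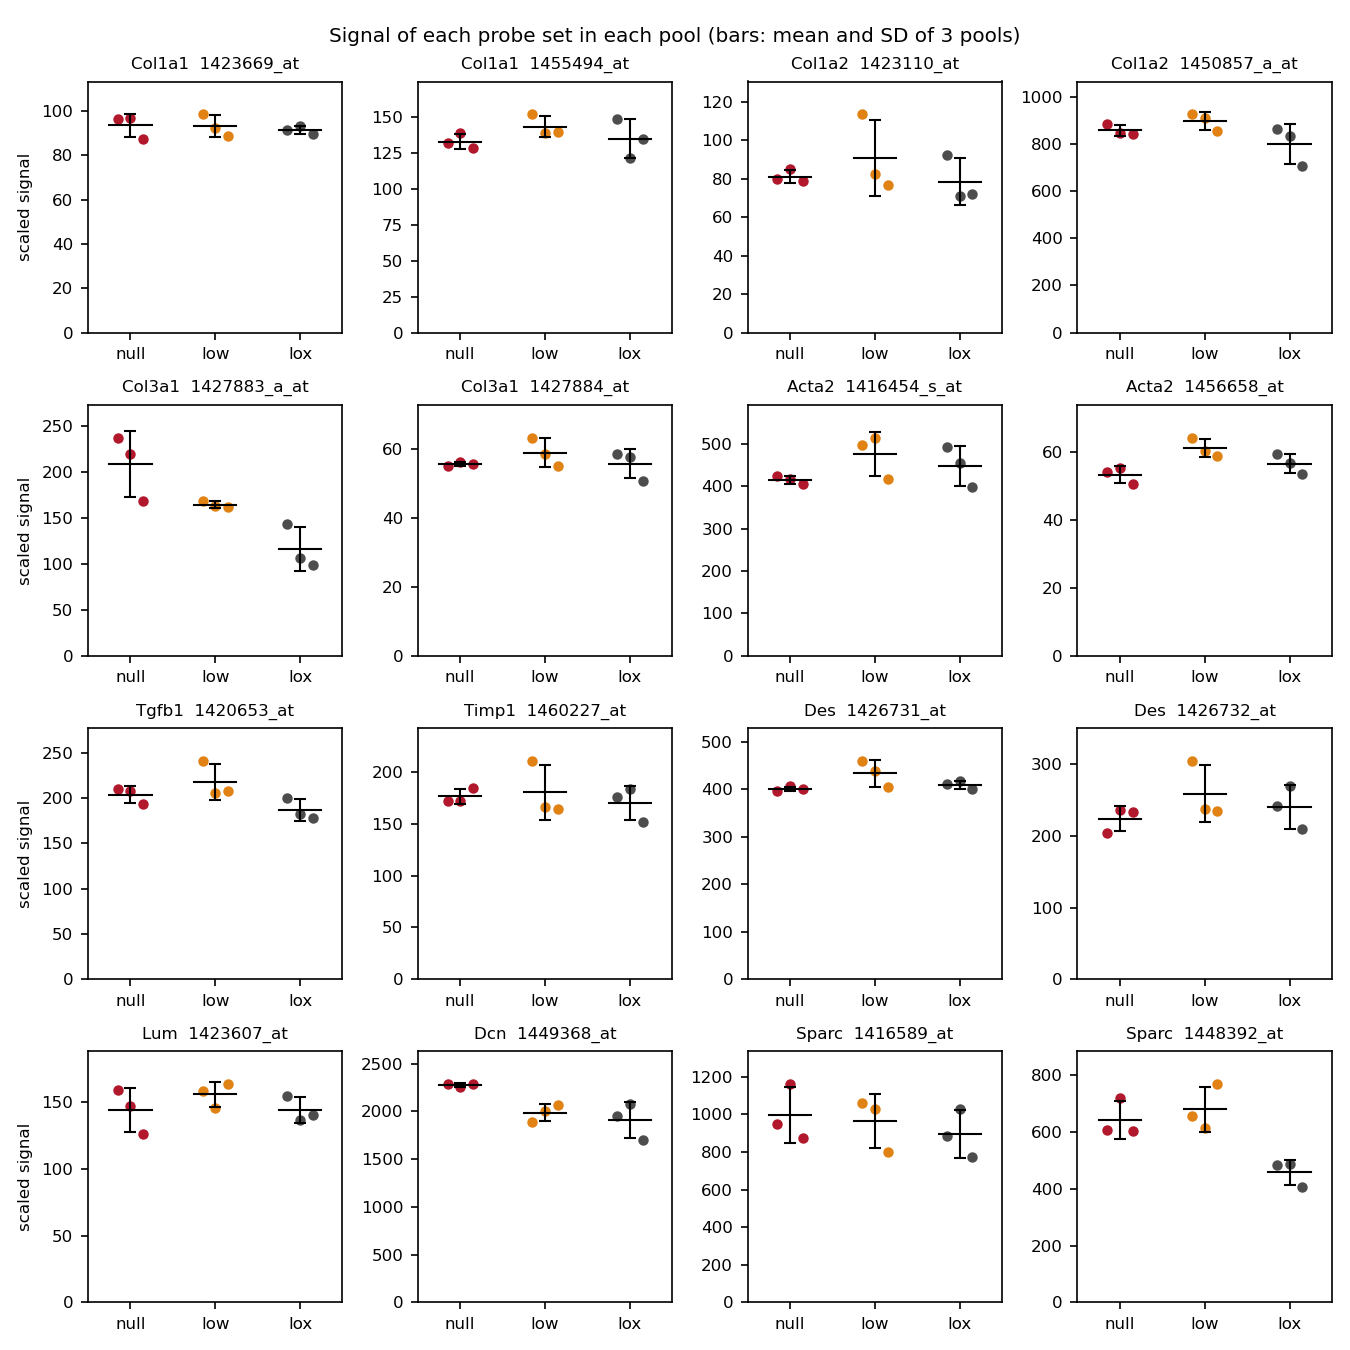
Scaled signal (vertical axis, linear, from 0) of each of the 16 probe sets in each pool, with the liver-Cpr-null model at the left, then Cpr-low, then Cpr-lox, with bars at the mean ± SD. Col3a1 1427883_a_at runs from 168.1 to 237.0 in liver-Cpr-null and 98.4 to 142.8 in Cpr-lox, and Sparc 1448392_at is at 603.4 or more in liver-Cpr-null and Cpr-low and at 485.1 or less in Cpr-lox.

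Among the fibrillar collagens, Col3a1, the single chain of collagen III, had the highest fold change. Its probe set 1427883_a_at gave 237.0, 218.8 and 168.1 in the 3 liver-Cpr-null pools, 168.1, 162.8 and 161.6 in the Cpr-low pools, and 142.8, 106.3 and 98.4 in the Cpr-lox pools. Every liver-Cpr-null pool and every Cpr-low pool lay above every Cpr-lox pool, and the lowest liver-Cpr-null pool met the highest Cpr-low pool at the same printed value. The rise in liver-Cpr-null over Cpr-lox was 0.77 ± 0.13 (1.7-fold, 95% interval 1.41 to 2.05, limma adjusted p = 0.00268), a call lost with the hybridization date as a block (0.81, adjusted p = 0.125). The arrays of both comparisons share the Cpr-lox pools. In Cpr-low the difference from Cpr-lox was 0.46 ± 0.13 (95% interval 0.20 to 0.73, limma adjusted p = 0.0675), which missed the threshold. It passed when Cpr-lox pool 1, the highest control, was left out (0.61, limma adjusted p = 0.012). It also passed without liver-Cpr-null pool 3 (0.46, limma adjusted p = 0.0333), which changes the shared spread and not the pools compared. Leaving out any other pool gave no call, with 0.42 without Cpr-lox pool 2 (limma adjusted p = 0.263) and 0.37 without Cpr-lox pool 3 (limma adjusted p = 0.241). Liver-Cpr-null and Cpr-low were not told apart for Col3a1 (0.30 ± 0.13, 95% interval 0.03 to 0.57, limma adjusted p = 0.182). The second Col3a1 probe set, 1427884_at, was dim, at 55.1, 56.2 and 55.4 in liver-Cpr-null, 63.2, 58.3 and 54.9 in Cpr-low and 58.3, 57.7 and 50.7 in Cpr-lox. Its pools overlapped throughout and its difference between liver-Cpr-null and Cpr-lox was 0.00 ± 0.06 (95% interval -0.12 to 0.12), so the 2 probe sets of this gene disagree.

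Collagen I is built from the chains of Col1a1 and Col1a2. The Col1a1 probe set 1423669_at gave 96.4, 96.6 and 87.5 in liver-Cpr-null, 98.5, 92.5 and 88.8 in Cpr-low, and 91.5, 93.2 and 89.6 in Cpr-lox. These 9 values overlapped in every pairing of models, and the fold changes against Cpr-lox were 0.03 ± 0.06 (95% interval -0.11 to 0.16) in liver-Cpr-null and 0.02 ± 0.06 in Cpr-low. The other Col1a1 probe set, 1455494_at, gave -0.02 ± 0.08 (95% interval -0.18 to 0.15) in liver-Cpr-null and 0.08 ± 0.08 in Cpr-low. A rise of the Col1a1 signal as large as that of Col3a1 lay outside all of these intervals. Both Col1a1 probe sets were dim, at 87.5 to 98.5 and 121.5 to 152.0, below the array medians. A change of the Col1a1 transcript may thus be understated. The brighter Col1a2 probe set, 1450857_a_at, gave 886.0, 845.6 and 841.5 in liver-Cpr-null, 926.0, 909.6 and 856.0 in Cpr-low, and 863.0, 833.4 and 705.5 in Cpr-lox. Cpr-lox pool 3 was the lowest of the 9, and the groups overlapped. The fold changes of this probe set were 0.10 ± 0.09 (95% interval -0.08 to 0.29) in liver-Cpr-null and 0.17 ± 0.09 (limma adjusted p = 0.451) in Cpr-low. The dimmer Col1a2 probe set, 1423110_at, had 0.05 ± 0.11 and 0.17 ± 0.11. There Cpr-low pool 1 stood highest, at 113.5, against 82.4 and 76.8 in the other Cpr-low pools and 70.9 to 92.5 in Cpr-lox. In the fit with a block for hybridization date, which rests on that pool, this probe set was called in Cpr-low (0.46, limma adjusted p = 0.0259).

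Sparc encodes osteonectin, a secreted protein that binds collagen and guides its assembly. The probe set 1448392_at gave 605.7, 720.5 and 603.4 in liver-Cpr-null, 656.2, 615.1 and 768.2 in Cpr-low, and 481.8, 485.1 and 407.3 in Cpr-lox. Neither model with altered Cpr overlapped the control, while the 2 overlapped each other. Sparc rose by 0.48 ± 0.10 in liver-Cpr-null (1.39-fold, 95% interval 1.19 to 1.62, limma adjusted p = 0.0195) and by 0.55 ± 0.10 in Cpr-low (1.47-fold, 95% interval 1.25 to 1.71, limma adjusted p = 0.00883), both against the same 3 Cpr-lox pools. The call in liver-Cpr-null was lost without liver-Cpr-null pool 2 (0.39, adjusted p = 0.0894) and without Cpr-lox pool 3 (0.40, adjusted p = 0.0772). The call in Cpr-low held when any 1 pool was left out, at fold changes of 0.46 to 0.62. Between liver-Cpr-null and Cpr-low the difference was -0.08 ± 0.10 (95% interval -0.30 to 0.15). The other Sparc probe set, 1416589_at, was brighter and did not show the rise. It gave 947.0, 1161.0 and 876.4 in liver-Cpr-null, 1058.7, 1030.3 and 797.1 in Cpr-low, and 886.2, 1028.9 and 774.7 in Cpr-lox. These pools overlapped in every pairing, with fold changes against Cpr-lox of 0.15 ± 0.13 (95% interval -0.14 to 0.43) in liver-Cpr-null and 0.10 ± 0.13 (95% interval -0.19 to 0.38) in Cpr-low. The pair of probe sets correlated at r = 0.356 over the 9 arrays.

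Decorin and lumican are small leucine-rich proteoglycans that coat collagen fibrils, and decorin also binds TGF-beta. Decorin, Dcn, gave 2286.3, 2251.1 and 2281.5 in liver-Cpr-null, 1891.6, 2001.2 and 2065.1 in Cpr-low, and 1947.4, 2076.0 and 1705.3 in Cpr-lox. The 3 liver-Cpr-null pools lay above all 6 other arrays, at an SD of 19.1 against 188 in Cpr-lox. The difference from Cpr-lox was 0.25 ± 0.08 (95% interval 0.08 to 0.43, limma adjusted p = 0.128) and that from Cpr-low was 0.19 ± 0.08 (limma adjusted p = 0.187), so neither passed. Between Cpr-low and Cpr-lox it was 0.06 ± 0.08. Lumican, Lum, averaged 144.2 ± 16.7 in liver-Cpr-null, 155.9 ± 9.19 in Cpr-low and 144.0 ± 9.63 in Cpr-lox (SD, n = 3 each), and its fold changes against Cpr-lox were 0.00 ± 0.09 and 0.10 ± 0.09 in the same order of models.

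Acta2, the smooth muscle actin that marks activated stellate cells, and Des, the desmin filament protein of rodent stellate cells, were not called in any comparison. The brighter Acta2 probe set, 1416454_s_at, gave 423.8, 416.9 and 404.2 in liver-Cpr-null, 496.7, 514.6 and 418.0 in Cpr-low, and 491.9, 453.7 and 397.6 in Cpr-lox. The liver-Cpr-null pools sat inside the range of the control, with a difference of -0.10 ± 0.10 (95% interval -0.31 to 0.11), and Cpr-low differed from Cpr-lox by 0.09 ± 0.10. The dimmer one, 1456658_at, ran from 50.5 to 55.2 in liver-Cpr-null, from 58.9 to 64.2 in Cpr-low and from 53.6 to 59.3 in Cpr-lox. Its liver-Cpr-null pools lay below all Cpr-low pools, at a difference of -0.16 ± 0.05 (limma adjusted p = 0.101). The Des probe sets 1426731_at and 1426732_at had fold changes of -0.03 ± 0.07 and -0.09 ± 0.11 in liver-Cpr-null and of 0.08 ± 0.07 and 0.10 ± 0.11 in Cpr-low, with overlapping pools. The highest Des value, 305.1 for 1426732_at, was that of Cpr-low pool 1.

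Tgfb1 encodes the main TGF-beta ligand of the injured liver. It gave 209.5, 208.0 and 193.4 in liver-Cpr-null, 240.9, 205.0 and 207.5 in Cpr-low, and 200.2, 182.3 and 177.4 in Cpr-lox. The Cpr-low pools lay above all Cpr-lox pools by a narrow margin, at 0.20 ± 0.08 (95% interval 0.03 to 0.38, limma adjusted p = 0.284), and liver-Cpr-null differed from Cpr-lox by 0.12 ± 0.08 (95% interval -0.06 to 0.29). Blocking on the hybridization date gave a Cpr-low difference of 0.34 (limma adjusted p = 0.0402), resting on Cpr-low pool 1, the highest of the 9 arrays. Timp1 encodes an inhibitor of matrix metalloproteinases that rises early in fibrotic livers. It averaged 176.4 ± 7.12 in liver-Cpr-null, 180.4 ± 26.4 in Cpr-low and 170.4 ± 16.4 in Cpr-lox (SD, n = 3 each). Its fold changes were 0.05 ± 0.10 (95% interval -0.16 to 0.26) and 0.07 ± 0.10 (95% interval -0.14 to 0.28) against Cpr-lox in liver-Cpr-null and Cpr-low.

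**Figure D2:**
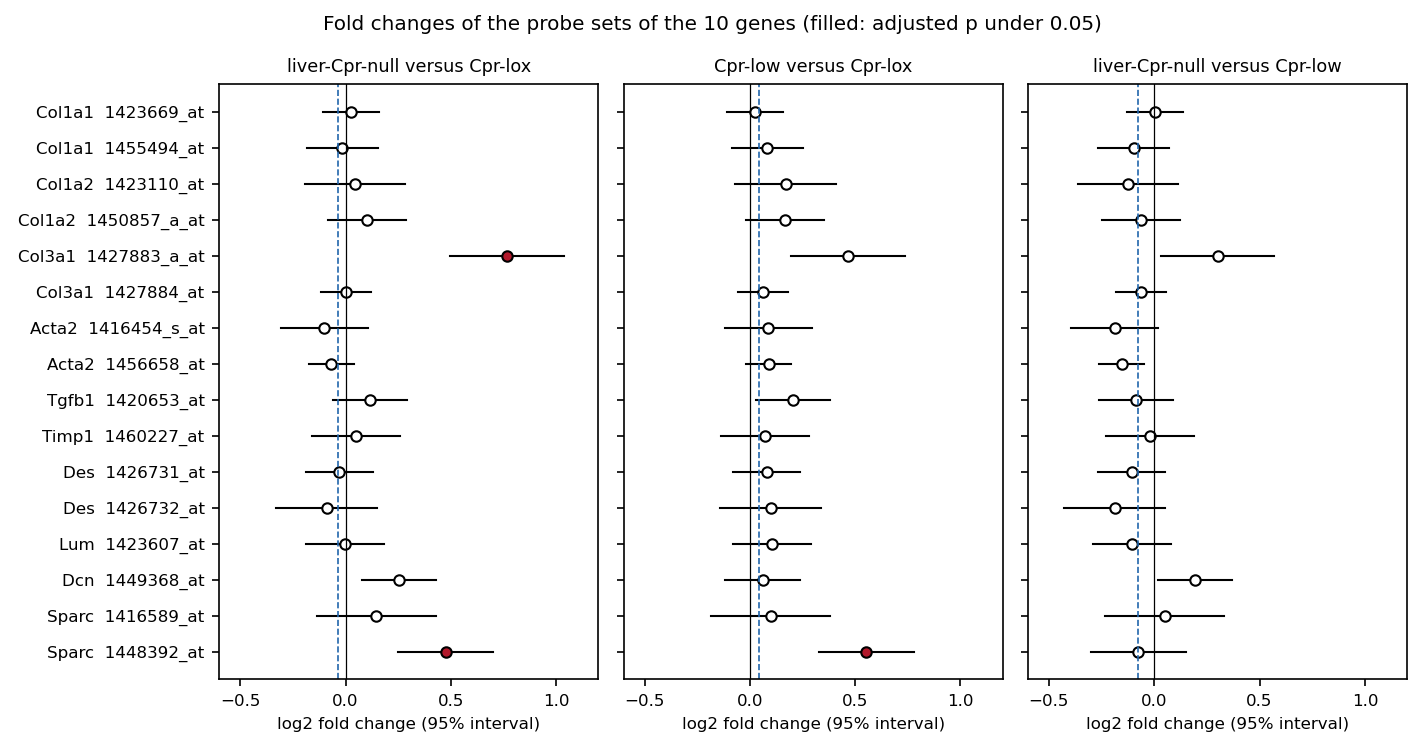
Log2 fold changes (points) with 95% intervals (lines) of the 16 probe sets in the 3 comparisons, filled where the limma adjusted p was under 0.05, with the median of all probe sets as a dashed line. Most intervals cross 0, and the filled points are Col3a1 1427883_a_at (0.77) and Sparc 1448392_at (0.48) in liver-Cpr-null and Sparc 1448392_at (0.55) in Cpr-low.

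The second question was whether a lower level of Cpr changes these genes. In Cpr-low against Cpr-lox 1 of 16 probe sets was called (6.25%), the Sparc one, which rose, where 2.96% of all probe sets were called and 1.17% rose. At an unadjusted p under 0.05 there were 3 of 16, those of Col3a1, Tgfb1 and Sparc, against 13% of all probe sets, and the same 3 had pools that did not overlap. That made 18.8%, against 16% of all probe sets. All 16 fold changes were above 0, with a median of 0.09. The median of all probe sets was 0.04, so more of those lay above 0 than below. With the deposited signals, median scaling or quantile normalization 15 of the 16 were above 0 and their median was 0.05 to 0.07. Without Cpr-low pool 1 the median was 0.0493 for the 16 and 0.0033 for all probe sets.

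The third comparison set both models with altered Cpr against each other. None of the 16 probe sets was called by limma between liver-Cpr-null and Cpr-low, where 4.7% of all probe sets were called. At an unadjusted p under 0.05 there were 3, Col3a1 and Dcn higher and Acta2 1456658_at lower in liver-Cpr-null, against 23% of all probe sets. The same number, 3 (18.8%), had pools that did not overlap, against 35.6% of all probe sets. Of the 16 fold changes 12 were below 0, with a median of -0.08 that equalled the median of all probe sets to 2 decimals. With scaling to the median 8 were below 0 and the median was 0.00. Over all probe sets 633 rose and 430 fell, a split that became 728 and 224 with the signals as deposited and 718 and 155 with scaling to the median. A moderated F test over the 3 models called 2 of the 16, Col3a1 1427883_a_at (adjusted p = 0.0047) and Sparc 1448392_at (adjusted p = 0.00787), and 6.78% of all probe sets.

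Both calls in liver-Cpr-null were lost in the fit that blocks on the hybridization date. There Col3a1 had 0.81 ± 0.23 (limma adjusted p = 0.125) and Sparc 0.41 ± 0.19 (limma adjusted p = 0.3). In Cpr-low the Sparc difference kept its call, at 0.51 ± 0.15 (limma adjusted p = 0.0487), and among the 4 arrays of the first date it was 0.51 ± 0.13 (limma adjusted p = 0.0311). Both values rest on Cpr-low pool 1 alone, a lone array taken to vary like the Cpr-lox pools, and are not independent of each other. The part of the hybridization date in these rises was not tested beyond this.

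**Figure D3:**
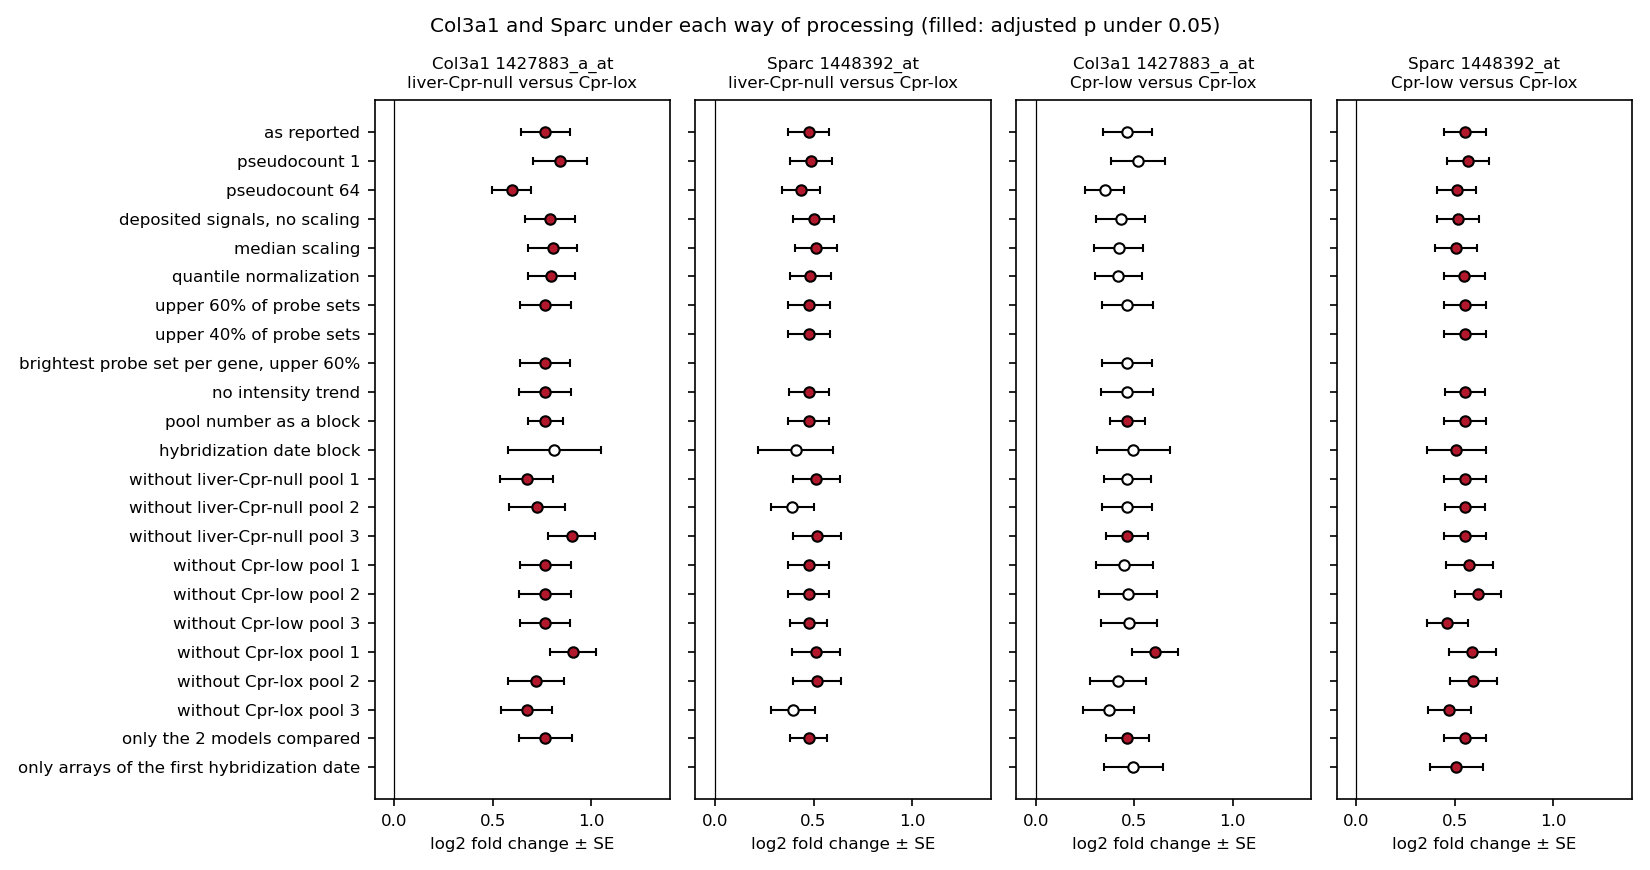
Log2 fold change ± SE of Col3a1 1427883_a_at and Sparc 1448392_at in liver-Cpr-null and in Cpr-low, each against Cpr-lox, under every way of processing that gave a value, filled where the limma adjusted p was under 0.05. All values lie above 0, from 0.60 to 0.91 for Col3a1 and from 0.39 to 0.52 for Sparc in liver-Cpr-null, and the hybridization date block leaves both of those unfilled.

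Wider lists of the same biology were read in the same fit. None of 25 probe sets of 15 other collagens was called by limma in any comparison. The closest was Col18a1, the endostatin precursor, at 0.32 ± 0.09 in Cpr-low (limma adjusted p = 0.0645), but its other probe set had 0.01 ± 0.07 there (limma adjusted p = 0.976). Col4a1, a basement membrane chain, had 0.29 ± 0.09 in liver-Cpr-null (limma adjusted p = 0.123) and 0.17 ± 0.10 by its other probe set (limma adjusted p = 0.552). None of 26 probe sets of matrix proteases and their inhibitors was called either. There the membrane protease Mmp14 was nearest, at -0.25 ± 0.07 in liver-Cpr-null by its dim probe set 1416572_at (limma adjusted p = 0.0794). Its brighter probe set, 1448383_at, had -0.17 ± 0.08 (limma adjusted p = 0.333). Timp2, another metalloproteinase inhibitor, had -0.26 ± 0.09 by its probe set 1450040_at (limma adjusted p = 0.191). The other Timp2 probe sets had -0.15 to -0.01 (limma adjusted p = 0.585 to 0.951). None of 24 probe sets of quiescent stellate cell markers was called in any comparison. Gfap, a filament protein of these cells, had 375.6, 357.8 and 342.0 by 1426508_at in liver-Cpr-null, 487.1, 398.0 and 423.0 in Cpr-low, and 383.2, 385.8 and 357.6 in Cpr-lox, a difference of 0.20 ± 0.09 in Cpr-low (limma adjusted p = 0.319). The hepatokine Angptl6 had 0.26 ± 0.08 there (limma adjusted p = 0.133).

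Enzymes that process and crosslink collagen had 5 of 25 probe sets risen in liver-Cpr-null and 0 fallen, from 2 genes, and 0 called in Cpr-low. Tissue transglutaminase, Tgm2, which crosslinks proteins in many cell types, rose by 4 of its 6 probe sets. The strongest, 1455900_x_at, gave 220.3, 322.3 and 208.9 in liver-Cpr-null, 126.3, 130.7 and 140.7 in Cpr-low, and 103.6, 113.4 and 141.3 in Cpr-lox (0.96 ± 0.14 against Cpr-lox, limma adjusted p = 0.000928). Its liver-Cpr-null pools stood clear of both other models, although with the hybridization date as a block it had 0.87 (limma adjusted p = 0.128). P4hb, a subunit of prolyl hydroxylase that also acts as a general disulfide isomerase, rose by 0.40 ± 0.08 (limma adjusted p = 0.0107), a call lost without liver-Cpr-null pool 1 or Cpr-lox pool 1 (adjusted p up to 0.0627) and with the date block (0.25, adjusted p = 0.367). The list's median was 0.02, against -0.04 for all probe sets. Of 46 probe sets of other matrix proteins 1 was called in liver-Cpr-null, and it fell. Fn1, fibronectin, which hepatocytes also secrete into plasma, gave 5219.6, 5992.4 and 5655.1 by 1426642_at in liver-Cpr-null, 6791.3, 8399.9 and 7793.4 in Cpr-low, and 8714.9, 9067.4 and 9312.8 in Cpr-lox. The models did not overlap in any pairing, and the difference between liver-Cpr-null and Cpr-lox was -0.68 ± 0.08 (limma adjusted p = 3e-04), and -0.94 with the date block (limma adjusted p = 0.00545). The dimmer Fn1 probe set, 1437218_at, was not called. It had -0.16 in liver-Cpr-null and -0.01 in Cpr-low against Cpr-lox (limma adjusted p = 0.379 and 0.971). The plasma protein vitronectin, Vtn, fell in liver-Cpr-null against Cpr-low by both of its probe sets, at -0.25 ± 0.07 and -0.31 ± 0.07 (limma adjusted p = 0.0428 and 0.0278), calls lost without any 1 of 8 and of 5 pools (adjusted p up to 0.132 and 0.119), and was not called against Cpr-lox.

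In TGF-beta and PDGF signalling 2 of 40 probe sets rose and 1 fell in liver-Cpr-null. Tgfbr2, the type II TGF-beta receptor, gave 682.4, 678.1 and 682.1 by 1426397_at in liver-Cpr-null, 375.7, 396.0 and 395.1 in Cpr-low, and 394.3, 361.5 and 311.8 in Cpr-lox. The liver-Cpr-null pools were nearly identical and far above the rest, a rise of 0.91 ± 0.09 (limma adjusted p = 2.91e-05) that kept its call with the date block (0.84, adjusted p = 0.0238). The other Tgfbr2 probe sets had -0.11 and -0.05 and were not called. Smad4, the partner shared by the receptor-activated Smads, fell by 1422486_a_at to 232.1, 277.9 and 259.4 in liver-Cpr-null and to 249.4, 293.5 and 291.3 in Cpr-low, against 387.3, 347.3 and 379.1 in Cpr-lox. Neither model overlapped the control, at -0.51 ± 0.09 (limma adjusted p = 0.0047) and -0.40 ± 0.09 (limma adjusted p = 0.0264), and the second of these calls was lost without any 1 of 4 pools (adjusted p up to 0.0934). The other Smad4 probe sets were not called, at -0.16 and -0.08 in liver-Cpr-null. Tgfbi, a matrix protein induced by TGF-beta, rose by 0.34 ± 0.08 by 1456250_x_at (limma adjusted p = 0.0358), a call lost without any 1 of 5 pools (adjusted p up to 0.149), and its 3 other probe sets were not called against Cpr-lox. Tgfb3, another TGF-beta ligand, fell in liver-Cpr-null against Cpr-low (-0.40 ± 0.10, limma adjusted p = 0.0406), a call lost without any 1 of 7 pools (adjusted p up to 0.158), and had -0.11 ± 0.10 against Cpr-lox.

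Among myofibroblast and contractile markers 3 of 26 probe sets rose in liver-Cpr-null and 0 in Cpr-low. Lgals1, galectin-1, which stellate cells, macrophages and other cells make, gave 283.2, 287.8 and 490.7 by 1455439_a_at in liver-Cpr-null, 119.9, 105.5 and 93.8 in Cpr-low, and 112.7, 87.1 and 91.6 in Cpr-lox. This was a rise of 1.67 ± 0.16 (limma adjusted p = 4.42e-05), and the other probe set, 1419573_a_at, rose by 0.85 ± 0.13 (limma adjusted p = 0.00168). Both kept their calls with the date block, at 1.91 and 1.19. Vim, the vimentin filament protein of mesenchymal cells and leukocytes, rose by 0.20 ± 0.05 by 1 dim probe set of its 3 (limma adjusted p = 0.0345), a call lost without any 1 of 7 pools (adjusted p up to 0.187) and with the date block (0.19, adjusted p = 0.247). Tagln, Cnn1, Myh11, Actg2 and the other contractile genes of the list were not called in any comparison.

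Among the lists for other cells, that of Kupffer cells and macrophages had the largest share of probe sets called in liver-Cpr-null. In that model 2.21% of all 22626 probe sets rose against Cpr-lox. Of 17 probe sets of Kupffer cell and macrophage markers 10 rose and 0 fell in liver-Cpr-null against Cpr-lox, and 0 were called in Cpr-low. Their summed signal was 12993 to 16516 in liver-Cpr-null, 9127 to 10139 in Cpr-low and 10010 to 10539 in Cpr-lox. Cd68, a lysosomal protein of macrophages, gave 391.4, 443.5 and 329.4 in liver-Cpr-null, 251.6, 227.2 and 224.5 in Cpr-low, and 236.4, 238.0 and 230.9 in Cpr-lox (0.68 ± 0.10 against Cpr-lox, limma adjusted p = 0.001). The macrophage genes Cd5l (0.94 ± 0.13), Ctss (0.68 ± 0.13) and C1qc (0.46 ± 0.08) rose as well, and with the date block these 3 lost their calls (adjusted p = 0.102, 0.106 and 0.154). The part of these cells in the Col3a1, Sparc, Tgm2 and Lgals1 values, or of the lower hepatocyte sum, was not tested.

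**Figure D4:**
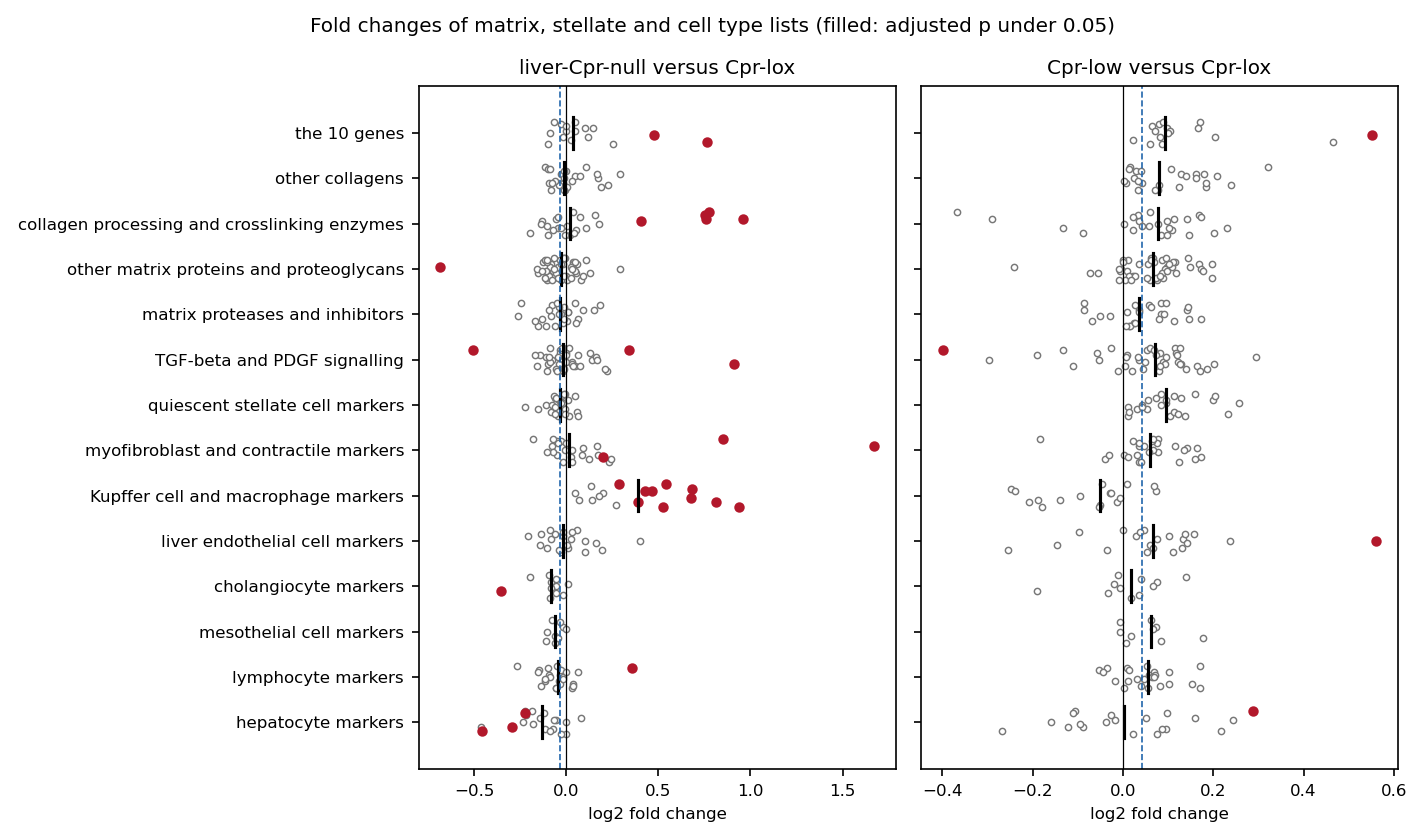
Log2 fold changes of every probe set of the 10 genes and of 13 further lists in liver-Cpr-null (left) and Cpr-low (right) against Cpr-lox, filled where the limma adjusted p was under 0.05, with a bar at each list's median and a dashed line at the median of all probe sets. In liver-Cpr-null the Kupffer cell and macrophage list is shifted to the right, with 10 of 17 filled, while the median of the 10 genes is 0.04.

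Liver endothelial cell markers had 0 of 21 probe sets called by limma in liver-Cpr-null and 1 in Cpr-low, Clec4g, a sinusoidal lectin, at 0.56 ± 0.13 (limma adjusted p = 0.0357), a call lost without any 1 of 5 pools (adjusted p up to 0.159) and under other scalings. Clec4g also had 0.40 ± 0.13 in liver-Cpr-null (limma adjusted p = 0.149). The summed endothelial signal was 8180 to 9864 in liver-Cpr-null, 9376 to 9908 in Cpr-low and 8099 to 9379 in Cpr-lox, so both models overlapped the control, Cpr-low by a narrow margin, and its part in the Sparc rise was not tested. Cholangiocyte markers had 1 of 11 called, Krt23 at -0.36 ± 0.09 in liver-Cpr-null (limma adjusted p = 0.0488, up to 0.219 without any 1 of 6 pools), mesothelial markers 0 of 9 and lymphocyte markers 1 of 24, the leukocyte antigen Ptprc at 0.36 ± 0.08 (limma adjusted p = 0.0201, up to 0.117 without any 1 of 4 pools). Of 20 hepatocyte probe sets 3 fell in liver-Cpr-null, among them Hnf4a 1427001_s_at at -0.46 ± 0.07 (limma adjusted p = 0.00229), and 1, of Ttr, rose in Cpr-low (0.29 ± 0.06, limma adjusted p = 0.0147), a call lost without any 1 of 3 pools (adjusted p up to 0.065) and under 2 other scalings. The other Hnf4a probe sets were not called. The others that fell in liver-Cpr-null were 2 probe sets of Apoa1, the main protein of HDL, at -0.29 ± 0.06 and -0.22 ± 0.06 (limma adjusted p = 0.0129 and 0.0446), calls lost without any 1 of 3 and of 7 pools (adjusted p up to 0.0628 and 0.179). In liver-Cpr-null against Cpr-low Ttr fell by 3 probe sets, the strongest at -0.48 ± 0.06 (limma adjusted p = 0.000512), Anxa4 fell by 1 of 2 (-0.34 ± 0.09, limma adjusted p = 0.0407) and Ighm by 1 of 11 (-0.44 ± 0.11, limma adjusted p = 0.0304). The calls of Anxa4 and Ighm were lost without any 1 of 5 and of 3 pools (adjusted p up to 0.166 and 0.126). Those of the weaker Ttr probe sets were also lost when single pools were left out (limma adjusted p up to 0.145 and 0.156). They were lost as well under the other scalings and with the date block. The lymphatic and sinusoidal receptor Lyve1 had 0.45 ± 0.12 by 1429379_at in that comparison (limma adjusted p = 0.0529), and the mesothelial markers Krt14 and Wt1 had -0.19 and -0.09 (limma adjusted p = 0.137 and 0.259). No marker probe set was at 0 in any pool. The actin controls, compared between their 3' and 5' probe sets, gave a signal ratio, a measure of RNA or labelling quality, of 1.97, 1.99 and 1.62 in liver-Cpr-null, 1.25, 1.26 and 1.17 in Cpr-low, and 1.23, 1.29 and 1.43 in Cpr-lox. It was higher in every liver-Cpr-null pool, and its part in the liver-Cpr-null values was not tested. The Gapdh ratio was 2.34 to 2.48 in liver-Cpr-null, 2.36 to 2.72 in Cpr-low and 2.60 to 2.79 in Cpr-lox.

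Over the 9 arrays Col3a1 1427883_a_at correlated with Sparc 1448392_at at r = 0.757, with Dcn at 0.724, with Tgfb1 at 0.654 and with Col1a2 1450857_a_at at 0.634, but with Acta2 1416454_s_at at -0.02 and with Des 1426731_at at -0.05. These describe 9 shared arrays of 3 models and carry no test. Among the upper 60% of probe sets by mean signal the genes most like Col3a1 were Uqcrc1 (r = 0.945), Hcfc1r1 (0.94) and Siva1 (0.932). For Sparc, by its brighter probe set, which was not called, they were Hpd (0.96), Aqp2 (0.959) and Usp20 (0.952). For Dcn they were Pgk1 (0.93), Plcl2 (0.921) and Gpr108 (0.91), and for Acta2 they were Ppp6r2 (0.984), Mastl (0.972) and Pkp3 (0.97). None of these is another of the 10 genes. They were picked as the highest correlations of many over 9 arrays, so a high r here carries no test.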

How the data were processed

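The authors deposited 1 linear signal intensity per probe set for each of 9 Affymetrix MOE430A arrays, a chip type given per the file headers. The summarisation, background step and scaling behind it are not given in the sources used here. Of 22690 probe sets 64 were controls and were left out. Gene symbols came from GEO's platform annotation, checked by gene number against RefSeq (GRCm38.p6), which changed 0. Probe sets with several symbols (691) or none (1555) were not named.

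Trimmed means (2% cut from each end) ran from 349 to 384, so arrays were scaled to a common one, and log2(signal + 16) was fitted in limma 3.58.1 (R 4.3.3; lmFit, contrasts, eBayes with an intensity trend) over all 9 arrays, two-sided, with Benjamini-Hochberg adjustment over all 22626 probe sets. The fit was tested on simulated data. The number of arrays limits the precision. Pools were grouped by their titles. The genes and lists were chosen with earlier results of these data known. Named were all 10 genes and, from each other list, every gene called or, where over 4 were called, the 4 with the smallest adjusted p, or the nearest up to 2 where fewer were called. For the brightest probe set of each gene the 3 most correlated genes were taken. Alternatives were the pseudocount (1 and 64), the scaling, filters on dim probe sets (upper 60% and 40%), the brightest probe set per gene, no intensity trend, the pool number or hybridization date as a block, single dates, only the 2 models compared, and leaving out each pool.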

Additional observations from a re-analysis of the deposited data

How the results depend on the processing

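With 3 pools a model, of 980 fold changes of the 16 probe sets recomputed under the alternatives, 968 kept their side of the threshold, 4 lost a call, 8 gained one and 0 called values reversed, while 53 uncalled ones changed sign, the largest of them at a size of 0.26. Most of the values that kept their side were uncalled in the fit as reported. All 4 losses were of the Col3a1 and Sparc calls in liver-Cpr-null against Cpr-lox. The cause of these changes was not tested beyond what a setting itself leaves out. In liver-Cpr-null against Cpr-lox the probe sets called numbered 217 with the hybridization date as a block, 1 of the 16 was called with the upper 40% of probe sets or the brightest probe set per gene, which drop Col3a1 or the called Sparc probe set, and 0 with the date block. The median of the 16 was 0.12 with the upper 40% and 0.16 with the date block. In Cpr-low against Cpr-lox 398 were called with median scaling, 2618 with the date block and 1279 with the first date alone. Of the 16, 0 were called with the brightest probe set per gene, 3 with the date block, and 2 each with the replicate block, the first date alone and only the 2 models compared. Their median was 0.19 with the date block and 0.19 with the first date alone. In liver-Cpr-null against Cpr-low 703 were called with the date block and 550 with the second date alone, and the median of the 16 was 0.0002 with median scaling. The F test called 2380 with the date block. Leaving out 1 pool gave 520 to 1023 called in liver-Cpr-null, 396 to 701 in Cpr-low, 587 to 1453 between them and 1064 to 1730 by the F test. Of the 16 it gave 1 to 2, 1 to 2 and 0, and their medians ranged from -0.0087 to 0.0642, from 0.0493 to 0.144 and from -0.1097 to -0.0305.

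Same-numbered pools did not deviate together in every pair (correlations of -0.195, 0.252 and 0.254 between liver-Cpr-null and Cpr-lox, 0.401, 0.00719 and 0.498 between Cpr-low and Cpr-lox, and -0.0867, 0.119 and 0.244 between liver-Cpr-null and Cpr-low), so by the rule that every pair exceed 0.1 they were not taken as paired, and not every pool correlated best with its own number. With the pool number as a replicate block 1824 were called between liver-Cpr-null and Cpr-low, 1 of the 16 among them, Acta2 1456658_at (-0.16, limma adjusted p = 0.0385). Col3a1 was then called in Cpr-low against Cpr-lox (0.46, limma adjusted p = 0.00901).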
